A study of Mus musculus with 30 samples.

Results

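Semaphorins are secreted or membrane-bound guidance ligands, plexins are their signalling receptors, and neuropilins are co-receptors. The 31 genes described here, 20 semaphorins, 9 plexins and 2 neuropilins, were taken by name from the 53431 genes of the deposited count table. RNA was sequenced from 30 libraries of CT-26 and Colon 26, a pair of mouse colorectal carcinoma lines of BALB/c origin, each of which is 1 line and 1 model. For each line there were 3 libraries of cultured cells. For each model there were 4 tumors in each of the nominal sizes 100, 400 and 800 mm3, grown from cells put under the skin of the flank of female BALB/c mice that keep their own immune system. The tumors measured 102.9 to 145.86, 400.47 to 466.73 and 807.93 to 963.18 mm3. The treatment text of the labels describes dosing with antibodies to CTLA-4, PD-1 and PD-L1, but no tumor is labelled with one, so all tumors were taken as untreated, which the labels do not state. Age was not given in the sources used here, nor whether cultures were grown separately, so p-values measure the spread between these libraries.

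Semaphorins were first known as repellents of growing axons, and they also act on blood vessels, leukocytes and tumor cells. Most of the secreted class 3 semaphorins bind a neuropilin, which carries no signalling domain of its own and passes the signal through a plexin of the A family. The membrane-bound classes bind plexins directly, class 4 mainly the B family and class 6 the A family. Plexins act on small GTPases, and neuropilins also bind vascular endothelial growth factors.

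Library totals ran from 21384730 to 39722586 estimated counts, and the Colon 26 cultures (at least 36042940) were deeper than the CT-26 cultures (at most 27856380). The cultures of the 2 lines also carry library numbers of separate series, so batch and model cannot be told apart in culture. Both series lie apart from the library numbers of the tumors. Batch and growth as tumor therefore cannot be told apart either, in each model and in the change of the model difference from culture to tumors. The tumors are numbered in runs by model and size. If libraries were handled in that order, the order cannot be told apart from model or size in tumors. Levels between groups are given as CPM, the counts scaled to a common TMM-normalized library size, and levels between genes as the deposited FPKM, which divides by transcript length. Of 8 epithelial markers checked against the carcinoma label, Epcam had 0 counts in all cultures and Cdh1, Krt8, Krt19 and Vil1 had mean CPM of at most 0.421, while Krt20 was at 25.1 in CT-26 and 5.42 in Colon 26, Krt18 at 16 in CT-26 and Cdx2 at 5.93 in Colon 26. The leukocyte marker Ptprc, at 0.162 CPM in CT-26 and 0.0334 in Colon 26 culture, was at 74.4 to 103 in the tumor groups, and the endothelial marker Pecam1, at 0.115 and 0.018 in culture, was at 39.6 to 61.4. In such bulk samples, fewer cells of a type and less RNA per cell cannot be told apart. The skeletal muscle gene Acta1 exceeded 100 CPM in 4 tumors, CT-26 tumor 4 of 100 mm3, CT-26 tumor 4 of 400 mm3, Colon 26 tumor 2 of 100 mm3 and Colon 26 tumor 1 of 400 mm3. Tumor numbers follow the order of deposit and are only names.

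Of the 31 genes, 15 had a mean of at least 1 CPM in all 8 groups. In every group the most abundant plexin was Plxnb2, receptor of several class 4 semaphorins, with a mean of 66.5 to 77.9 FPKM. The most abundant semaphorin was Sema3a, the prototype axon repellent, at 77.5 ± 0.639 FPKM in CT-26 culture and 135 ± 2.26 in Colon 26 culture (SD, n = 3), and at 56.0 to 93.9 in the tumor groups. Nrp2, the neuropilin bound by Sema3f, was at 31.4 to 77.1 FPKM, above Nrp1, the neuropilin bound by Sema3a, at 3.31 to 12 FPKM. Plxna1, a main signalling partner of neuropilins, lay at 23.2 to 30.2 FPKM and Sema5a, a membrane semaphorin with thrombospondin repeats, at 11.1 to 27.0 FPKM. At the other end, Sema3c, Sema3d, Sema3e, Sema4f, Sema4g, Sema5b, Sema6a and Plxnb3 had group means of at most 0.298 FPKM.

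**Figure D1:**
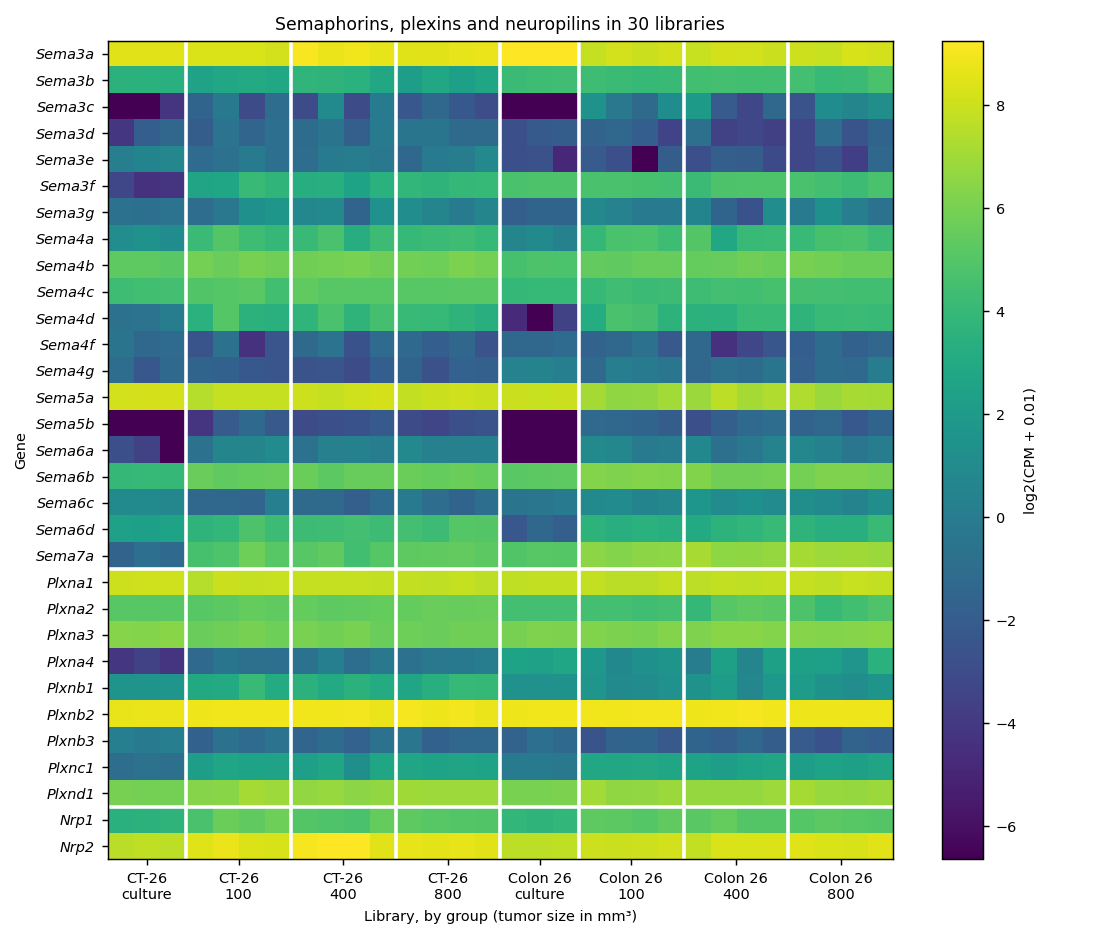
Level of each of the 31 genes (rows) in each of the 30 libraries (columns, by group, tumor size in mm3), as log2(CPM + 0.01) by color. White lines separate the groups and, from top to bottom, 20 semaphorins, 9 plexins and 2 neuropilins, and the darkest cells are genes at or near 0 in culture, among them Sema5b and Sema6a.

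The genes at the bottom of the range were often at the limit of detection in culture. In CT-26 culture 5 genes, Plxna4, Sema3c, Sema3f, Sema5b and Sema6a, had 3 or fewer counts in every library, and in Colon 26 culture 4 genes did, Sema3c, Sema4d, Sema5b and Sema6a. None did in any tumor group. Where one group of a comparison was that low, its fold is given as a lower bound against 3 counts per library, and no fold is given where both were.

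The models were compared at each stage, to ask which differences between the lines were there in culture and which in tumors. A gene was called when its adjusted p (edgeR's quasi-likelihood test, Benjamini-Hochberg over all genes tested) was at most 0.1 and its log2 fold change, Colon 26 over CT-26, was at least 1 in size. In culture 10 of the 27 genes tested were called, against 22.9% of all genes tested. Of these 5 were higher in Colon 26 (10.6% of all genes) and 5 lower (12.3%). In tumors of 100 mm3 9 of 27 were called (13.2% of all genes), 7 higher (6.17%) and 2 lower (7.06%). In tumors of 400 mm3 7 of 29 were called (14.3%), 5 higher (6.48%) and 2 lower (7.79%), and at 800 mm3 10 of 30 (14.1%), 6 higher (6.5%) and 4 lower (7.62%). Without a minimum fold change 24, 19, 16 and 20 passed, against 82.6%, 56.5%, 52.2% and 59.4% of all genes. The median log2 fold change of the genes tested was -0.17, 0.03, 0.02 and -0.06 in these comparisons, beside 0.01, -0.00225, 0.03 and -0.01 over all genes. Sema7a, Sema4g and Plxna4 were called higher in Colon 26 and Sema3e lower in all 4 comparisons, 4 of the 25 genes tested in all of them, beside 6.22% of all genes. In the 3 tumor sizes alone, Sema6c and Plxnb1 joined them, 6 of 27 genes beside 8.67% of all genes. Of the 4 genes called at every stage, none had at least 10 counts in every culture library. Sema3e and Sema4g had group means of at most 0.298 FPKM. With DESeq2, an alternative test, Sema4g was not called at 800 mm3. Without the tumors over 100 CPM of Acta1, a choice made after seeing the data, the counts of called genes were again 9 at 100 mm3 and 7 at 400 mm3. The share of all genes called in those fits is not given here.

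Among the secreted ligands the largest difference in culture was that of Sema3f, which signals through Nrp2 and is coded on the minus strand of chromosome 9 at 107681500 to 107710475 (GRCm38). Its CPM in the CT-26 cultures was 0.0931, 0.0371 and 0.0417, and in the Colon 26 cultures 26.3, 28.1 and 28.1. The CT-26 cultures held no more than 3 counts of it and the Colon 26 cultures were at least 219-fold higher (adjusted p = 7.8e-17, edgeR). In CT-26 tumors Sema3f was at 6.33, 6.93, 16.6 and 13.5 CPM at 100 mm3, at 9.50, 10.5, 5.91 and 11.2 at 400 mm3 and at 14.9, 13.2, 15.6 and 15.9 at 800 mm3. Colon 26 tumors were at 25.8, 25.6, 24.3 and 22.7, then at 17.9, 27.7, 29 and 29.3, and then at 25.4, 22.4, 19.1 and 26.3 CPM. At every size the lowest Colon 26 tumor lay above the highest CT-26 tumor, with a narrower gap than in the cultures. The log2 fold changes in tumors were 1.17 ± 0.29 (SE, adjusted p = 0.0087), 1.49 ± 0.22 (adjusted p = 0.00077) and 0.64 ± 0.11 (adjusted p = 0.00094), so that the last missed the fold threshold. In the CT-26 tumors of 100 mm3, the tumors with more Sema3f also had more of the endothelial marker Pecam1, 24.9, 35.3, 73.3 and 55.3 CPM in the same order. In the CT-26 tumors of 400 and 800 mm3 the lowest tumor was the same for both genes, but the full orders did not match. Pecam1 was there at 43.1, 49.4, 38.9 and 47.7 and then at 68.5, 57.2, 59.95 and 60.1 CPM. The part of Pecam1 in the result was not tested.

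Sema7a, a lipid-anchored semaphorin that binds plexin C1 and the integrin beta 1 chain, is coded on chromosome 9 at 57940112 to 57962865 (GRCm38). It was at 0.326, 0.557 and 0.417 CPM in the CT-26 cultures and at 31, 35.1 and 34.1 in the Colon 26 cultures, a log2 fold change of 6.28 ± 0.13 (SE, adjusted p = 2.3e-16). CT-26 tumors held 24.8, 29.8, 54.5 and 35.4 CPM at 100 mm3, 35.2, 41.7, 22.0 and 32.8 at 400 mm3 and 39.2, 41.8, 42.6 and 38.6 at 800 mm3. Colon 26 tumors held 89.2, 80.7, 90.7 and 92.5, then 146, 94.4, 97.9 and 109, and then 140.4, 119, 129 and 115 CPM. The models did not overlap at any stage, and CT-26 tumors were near the level of the Colon 26 cultures. The log2 fold changes in tumors were 1.28 ± 0.21, 1.77 ± 0.21 and 1.63 ± 0.07 (SE), with adjusted p of 0.0011, 0.0002 and 1.9e-07.

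Sema4g, a membrane semaphorin of class 4 that binds plexin B2, was low throughout. It was at 0.512, 0.186 and 0.417 CPM in the CT-26 cultures and at 1.30, 1.37 and 1.15 in the Colon 26 cultures (log2 fold change 1.86 ± 0.31, adjusted p = 4.9e-05). The CT-26 tumors held 0.338, 0.294, 0.195 and 0.172 CPM at 100 mm3, 0.158, 0.171, 0.115 and 0.257 at 400 mm3 and 0.341, 0.147, 0.303 and 0.281 at 800 mm3. The Colon 26 tumors held 0.420, 1.10, 0.899 and 0.743, then 0.370, 0.569, 0.492 and 0.723, and then 0.287, 0.478, 0.430 and 0.996 CPM. The models were apart at 100 and 400 mm3 and overlapped at 800 mm3. The log2 fold changes were 1.65 ± 0.37, 1.61 ± 0.34 and 1.02 ± 0.43 (SE), and at 800 mm3 the call was lost without CT-26 tumor 2, 3 or 4 or Colon 26 tumor 4 (adjusted p = 0.177, 0.108, 0.115 and 0.235, edgeR) or with DESeq2 (adjusted p = 0.134).

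Sema3e was a secreted ligand with the opposite direction. It differs from other class 3 semaphorins in binding plexin D1 without a neuropilin. The CT-26 cultures were at 1.12, 1.45 and 1.63 CPM and the Colon 26 cultures at 0.135, 0.144 and 0.0244 (log2 fold change -3.70 ± 0.39, adjusted p = 2.7e-07). CT-26 tumors were at 0.464, 0.621, 0.936 and 0.549 CPM at 100 mm3, at 0.513, 0.886, 1.07 and 0.812 at 400 mm3 and at 0.379, 0.911, 1.04 and 1.78 at 800 mm3. Colon 26 tumors were at 0.226, 0.138, 0 and 0.248, then at 0.135, 0.265, 0.246 and 0.108, and then at 0.0958, 0.149, 0.0661 and 0.406 CPM. Only at 800 mm3 did one Colon 26 tumor, at 0.406, reach into the CT-26 range. The log2 fold changes in tumors were -2.05 ± 0.56, -2.10 ± 0.37 and -2.55 ± 0.58 (SE), with adjusted p of 0.014, 0.0018 and 0.0040. Its receptor gene Plxnd1 was called in none of the 4 comparisons, with group means of 61.9 to 124 CPM.

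Plxna4, a receptor of class 3 and class 6 semaphorins that works with neuropilins, had the largest difference among the plexins in culture. It is coded on the minus strand of chromosome 6 at 32144268 to 32588192 (GRCm38). It was at 0.0466, 0.0742 and 0.0417 CPM in the CT-26 cultures and at 6.09, 5.54 and 6.76 in the Colon 26 cultures, at least 48.9-fold higher (adjusted p = 1.1e-12, edgeR). CT-26 tumors were at 0.422, 0.719, 0.585 and 0.549 CPM at 100 mm3, at 0.592, 1.16, 0.537 and 0.812 at 400 mm3 and at 0.606, 0.823, 0.842 and 1.06 at 800 mm3. Colon 26 tumors were at 3.49, 1.73, 2.55 and 3.01, then at 1.08, 5.27, 1.48 and 5.35, and then at 5.30, 5.11, 3.11 and 11.4 CPM. The Colon 26 tumors of 400 mm3 split into a higher and a lower pair, and one of the lower pair overlapped CT-26. The log2 fold changes in tumors were 2.21 ± 0.27, 2.07 ± 0.57 and 2.88 ± 0.39 (SE), with adjusted p of 0.00019, 0.017 and 0.00017. An antisense gene, Plxna4os3, overlaps its exons but had 0 counts in every library.

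**Figure D2:**
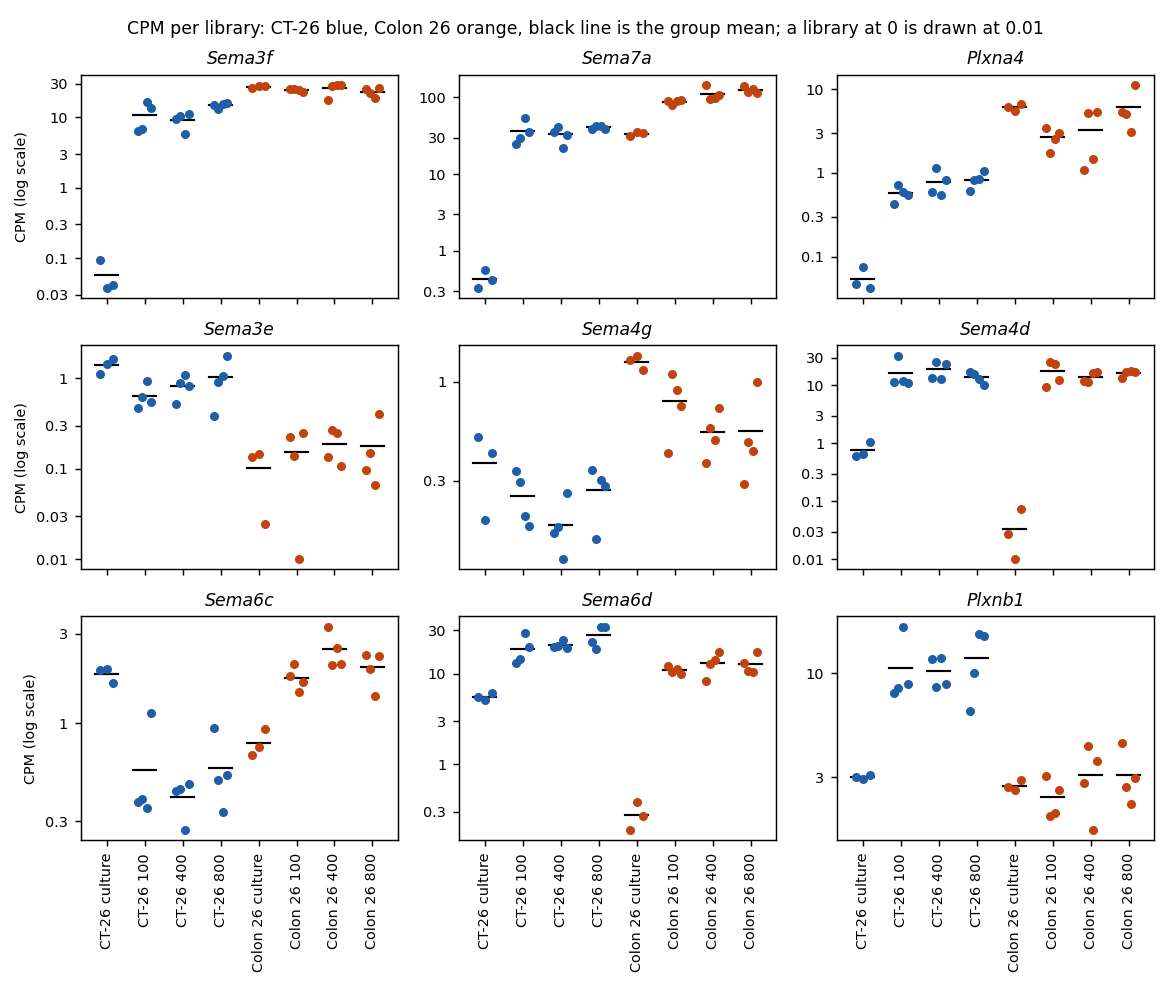
CPM of 9 genes in each library (points, log scale), with CT-26 in blue, Colon 26 in orange and a black line for the group mean, where a library at 0 is drawn at 0.01. Sema3f, Sema7a and Plxna4 are near the bottom of their axes in CT-26 culture alone, while Sema4d and Sema6d are lowest in Colon 26 culture.

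Plxnb1, the plexin B that binds Sema4d and pairs with the MET and ERBB2 kinases, was called in tumors alone. Its library values are given, by a choice made after they were seen, because it was called at all 3 tumor sizes. The cultures were at 3.03, 2.93 and 3.09 CPM in CT-26 and at 2.68, 2.60 and 2.90 in Colon 26 (log2 fold change -0.09, not called). CT-26 tumors were at 7.93, 8.47, 17.2 and 8.89 CPM at 100 mm3, at 11.9, 8.59, 11.9 and 8.89 at 400 mm3 and at 6.51, 10.0, 15.7 and 15.5 at 800 mm3. Colon 26 tumors were at 3.07, 1.93, 1.99 and 2.60, then at 2.83, 4.32, 1.63 and 3.61, and then at 4.47, 2.69, 2.21 and 2.99 CPM. No tumor of one model overlapped the other, and the log2 fold changes were -2.16 ± 0.29, -1.74 ± 0.29 and -1.96 ± 0.31 (SE), with adjusted p of 0.00032, 0.0013 and 0.00043. The summed CPM of the 8 epithelial markers was also higher in CT-26, at 139 to 185 in tumors of 100 mm3 against 21.8 to 31.1 in Colon 26. That sum was mostly Krt20, at a mean of 140.4 and 15.8 CPM, and Krt18, at 12.2 and 0.0256, while Krt8 was at 0.792 and 0.197 and Epcam at 0.130 and 0.0774. The other 4 markers were lower in CT-26, Cdh1 at 1.29 and 2.80 CPM, Krt19 at 0.474 and 1.63, Vil1 at 0.0561 and 0.114 and Cdx2 at 0.169 and 4.47. In culture, where Plxnb1 was not called, the sum of the 8 was already higher in CT-26, at 41.1 to 42.7 against 11.3 to 12.1 CPM. The part of these markers in the result was not tested. An overlapping gene on the other strand, Gm7628, held 0 to 8 counts.

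Promoter sequences are shown for Sema7a and Sema3e, a pair called in opposite directions at all 3 tumor sizes, each with a single window in the table of mouse promoters taken from RefSeq. Each sequence is the 250 bases before the start of the gene on the plus strand of GRCm38.p6, with CG, the dinucleotide that is the main site of DNA methylation, in capitals. The table matched 26 of the 31 genes with 37 windows, Sema3f and Plxna4 not among them. Sema7a is chr9:57939862-57940111 and Sema3e is chr5:14025026-14025275.
Sema7a: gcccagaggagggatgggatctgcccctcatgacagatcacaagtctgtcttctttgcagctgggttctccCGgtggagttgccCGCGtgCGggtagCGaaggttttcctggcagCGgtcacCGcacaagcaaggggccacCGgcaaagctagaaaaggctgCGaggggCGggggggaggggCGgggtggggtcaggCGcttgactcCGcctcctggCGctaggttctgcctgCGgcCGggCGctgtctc
Sema3e: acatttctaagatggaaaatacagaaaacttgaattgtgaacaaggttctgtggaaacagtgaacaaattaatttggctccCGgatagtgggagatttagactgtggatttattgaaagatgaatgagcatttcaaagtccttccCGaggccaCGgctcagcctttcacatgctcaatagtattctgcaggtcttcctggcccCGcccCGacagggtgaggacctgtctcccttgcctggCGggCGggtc
The window of Sema7a holds 17 CG and that of Sema3e 7, and 23.5% and 46.3% of all 32851 windows hold as many or more. Sema4g, called higher in Colon 26 at all 3 tumor sizes, and Plxnb1, called lower at all 3, also have a single window each, not shown. The window of Sema4g holds 24 CG and that of Plxnb1 30. Whether the number of CG relates to the direction of a call was not tested. The median was 13 over the 37 windows of the family and 6 over all windows. The letters CTTTGA, the core of the site bound by TCF/LEF factors of the Wnt pathway, were searched on both strands (CTTTGA or TCAAAG). They were found in 2 of the 37 windows, those of Nrp2 and Sema3e (5.41%), and in 13.8% of all windows. A match is a description of letters and not of binding.

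The other secreted ligands differed at some stages. Sema3b, which lies near Sema3f on chromosome 9, was called higher in Colon 26 tumors at 100 mm3 (18 ± 1.61 against 7.18 ± 1.01 CPM, SD, n = 4) and at 800 mm3 (21.2 ± 3.95 against 5.85 ± 1.23), with log2 fold changes of 1.32 and 1.84. Its values in culture (0.84) and at 400 mm3 (0.95) missed the fold threshold. Sema3c, a ligand of both neuropilins, had at most 3 counts in every culture library, and was at 0.338, 0.850, 0.117 and 0.515 CPM in CT-26 tumors of 100 mm3 and at 2.81, 0.825, 0.449 and 2.10 in Colon 26 tumors. At 800 mm3 it was at 0.189, 0.382, 0.202 and 0.125 CPM in CT-26 and at 0.160, 2.15, 1.49 and 2.32 in Colon 26. The groups overlapped in both, and the log2 fold changes of 1.71 ± 0.66 and 2.72 ± 0.68 (SE) were called (adjusted p = 0.058 and 0.0069), the first lost without CT-26 tumor 1 or 3 or Colon 26 tumor 1 or 4 (adjusted p = 0.120, 0.114, 0.167 and 0.129). At 400 mm3 Sema3c was at 0.118, 1.94, 0.115 and 0.898 against 4.01, 0.227, 0.0923 and 0.398 CPM and was not called. The fibroblast markers Pdgfra, Dcn, Lum, Col1a1 and Col3a1 summed to 85.4 to 90.7 CPM in CT-26 cultures. In Colon 26 cultures they summed to 298 to 318 CPM. In tumors of 100 mm3 the sums were 1305 to 2236 and 2577 to 3259 CPM. The models overlapped at 400 mm3 (1008 to 2236 and 1661 to 2682) and 800 mm3 (1023 to 1617 and 1457 to 3260). The part of these markers in the values of Sema3c was not tested. Sema3d was called lower in Colon 26 at 800 mm3 alone (0.275 ± 0.184 against 0.575 ± 0.159 CPM, adjusted p = 0.075), and the call was lost without CT-26 tumor 1 or 2 or Colon 26 tumor 1, 3 or 4 (adjusted p = 0.149, 0.165, 0.161, 0.176 and 0.105) or with DESeq2 (adjusted p = 0.135).

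Sema3a itself was called in no comparison of the models. It was at 366, 378 and 369 CPM in the CT-26 cultures and at 610.1, 611 and 601 in the Colon 26 cultures (log2 fold change 0.76 ± 0.03, adjusted p = 1.6e-13). CT-26 tumors were at 332, 326, 331 and 282 CPM at 100 mm3, at 539, 444, 474 and 399 at 400 mm3 and at 354, 372, 399 and 434 at 800 mm3. Colon 26 tumors were at 229, 286, 256 and 282, then at 247, 304, 285 and 250.3, and then at 260.4, 242, 319 and 286 CPM. The order of the models turned from culture to tumors, where the log2 fold changes were -0.28, -0.77 and -0.50, each with an adjusted p under the threshold and a fold below it, and the models overlapped at 100 mm3. Sema3a, Sema3c, Sema3d and Sema3e lie on chromosome 5 between 12383385 and 17730268 (GRCm38), and these neighbors did not share a direction.

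Of class 4, Sema4d, an immune semaphorin known as CD100, differed in culture alone. The CT-26 cultures were at 0.605, 0.668 and 1.04 CPM and the Colon 26 cultures at 0.0271, 0 and 0.0732, at least 10.2-fold lower (adjusted p = 2.8e-06, edgeR). The tumors of both models spanned 9.24 to 32.7 CPM, with log2 fold changes of 0.07, -0.43 and 0.22 that were not called. Sema4b, the class 4 member with the highest FPKM, was at 39.3, 40.5 and 36.6 CPM in the CT-26 cultures and at 25.1, 27.8 and 26.8 in the Colon 26 cultures. In tumors it spanned 50.2 to 70.4 CPM in CT-26 and 41.5 to 62.8 in Colon 26, and it was called at no stage. Sema4a, Sema4c and Sema4f were not called in any comparison of the models, nor were Sema5a and Sema5b of class 5.

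In class 6, Sema6d, a ligand of plexin A1, was at 5.57 ± 0.504 CPM in CT-26 culture and 0.281 ± 0.0984 in Colon 26 culture (SD, n = 3), a log2 fold change of -4.22 ± 0.22 (SE, adjusted p = 3.0e-11). In tumors it was called at 800 mm3 only (26.6 ± 7.15 against 12.8 ± 3.13 CPM, SD, n = 4, log2 fold change -1.06), and the value was -0.95, -0.95, -0.97 and -0.96, short of the fold threshold, without CT-26 tumor 3 or 4 or Colon 26 tumor 2 or 3. Sema6c was lower in Colon 26 in culture (0.783 ± 0.130 against 1.82 ± 0.169 CPM, log2 fold change -1.16, adjusted p = 0.00016). It was higher in Colon 26 tumors, at 1.74 ± 0.253 against 0.564 ± 0.380, 2.47 ± 0.573 against 0.404 ± 0.0916 and 1.98 ± 0.427 against 0.578 ± 0.260 CPM (SD, n = 4), with log2 fold changes of 1.60, 2.61 and 1.78 and adjusted p of 0.0075, 8.9e-05 and 0.00087. Sema6b, the class 6 member with the highest FPKM, was at 15.1, 15.9 and 15.5 CPM in the CT-26 cultures and at 36.7, 37.3 and 39.1 in the Colon 26 cultures (log2 fold change 1.33 ± 0.05, adjusted p = 3.8e-13). In tumors Sema6b spanned 38.1 to 52.1 CPM in CT-26 and 56.1 to 79.8 in Colon 26, with log2 fold changes of 0.73, 0.42 and 0.50 that missed the fold threshold. Sema6a was not called.

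Among the other receptors, Plxnb3 alone was called between the models. Plxnb2 was at 423, 449.9 and 436 CPM in the CT-26 cultures and at 465, 481 and 486 in the Colon 26 cultures, and spanned 436 to 518 CPM over the tumors. Its log2 fold changes were 0.18, 0.05, 0.02 and -0.05. Plxna2, a receptor of class 6 semaphorins, was below the fold threshold but lower in Colon 26, at 22.6 ± 0.267 against 35.0 ± 0.570 CPM in culture (SD, n = 3) and 24.3 ± 5.71 against 48.0 ± 1.75 at 800 mm3 (SD, n = 4). Its log2 fold changes were -0.58, -0.85, -0.45 and -0.99, of which that at 400 mm3 also missed the adjusted p. Nrp2 was at 199, 217 and 206 CPM in the CT-26 cultures and at 203, 203 and 211 in the Colon 26 cultures, which overlapped. CT-26 tumors were at 363, 445, 339 and 310.3 CPM at 100 mm3, at 522, 590.1, 600.4 and 370.2 at 400 mm3 and at 402, 395, 406 and 368 at 800 mm3. Colon 26 tumors were at 259.9, 249, 267 and 282, then at 224, 322, 322 and 341, and then at 354, 329.9, 316 and 378 CPM. The models were apart at 100 and 400 mm3 and overlapped at 800 mm3, with log2 fold changes of -0.47 ± 0.11, -0.79 ± 0.18 and -0.19 ± 0.07 (SE) that all passed the adjusted p and missed the fold threshold. Plxnb3, a receptor of Sema5a, was called lower in Colon 26 culture (0.431 ± 0.115 against 1.06 ± 0.148 CPM, SD, n = 3, adjusted p = 0.0011). Plxna1, Plxna3, Plxnc1 and Nrp1 were not called, with log2 fold changes between -0.25 and 0.67. In all, 14 of the 31 genes were called in at least 1 comparison of the models and 17 in none. The share of all genes called in at least 1 of them was not worked out, so these counts cannot be measured against it.

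**Figure D3:**
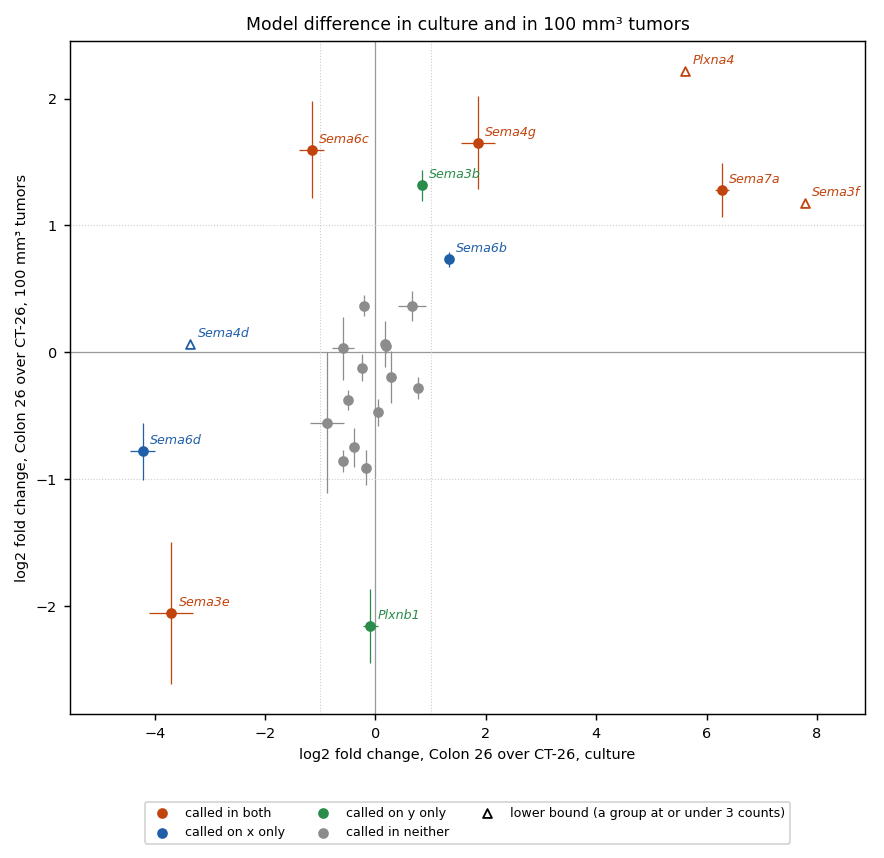
Log2 fold change, Colon 26 over CT-26, in culture (x axis) and in 100 mm3 tumors (y axis) for the genes tested in both, with standard errors as bars and colors for where a gene was called. Open triangles are lower bounds, drawn without bars, and Sema6c is the one gene called on both axes whose fold is below 0 in culture and above 0 in tumors.

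Tumors of 100 mm3 were compared with cultures within each model, to ask how the family changed on growth in the animal, where host cells are added. In CT-26, 15 of 27 genes tested were called, against 32.2% of all genes, 12 of them higher in tumors (22.2%) and 3 lower (10.1%). In Colon 26, 15 of 29 were called, against 26.9%, again 12 higher (20.8%) and 3 lower (6.11%). Without a minimum fold change 25 and 22 passed, against 75.5% and 78.9% of all genes. Of the semaphorins tested, 8 were higher and 2 lower of 16 in CT-26, and 10 were higher and 2 lower of 18 in Colon 26. Of the 9 plexins, 3 were higher and 1 lower in CT-26, and 1 was higher and 1 lower in Colon 26. The median log2 fold change of the genes tested was 0.79 in CT-26 and 0.36 in Colon 26, beside 0.06 and 0.05 over all genes. Of the 26 genes tested in both models, 9 rose in both, beside 18.5% of all genes called in 1 direction in both, and 2 moved in opposite directions, beside 0.612% of all genes. These comparisons share libraries with those of the models, so the values are set side by side and are not independent. Without the tumors over 100 CPM of Acta1, 14 genes were called in CT-26 and 14 in Colon 26, with no share of all genes at hand for those fits.

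The 9 genes that rose in both models included immune and vascular ligands and both kinds of receptor. Sema4d, whose receptors are plexin B1 and the leukocyte receptor CD72, went to 11.3, 32.7, 11.7 and 11.0 CPM in CT-26 tumors, 21.8-fold above the cultures (log2 fold change 4.45 ± 0.56, adjusted p = 0.00015). In Colon 26 it went to 9.24, 25.6, 23.4 and 12.3 CPM, at least 234-fold above (adjusted p = 3.8e-06, edgeR). Ptprc was highest in the CT-26 tumor with the most Sema4d, at 186 CPM, and the 4 T cell markers summed to 40.3 CPM there against 5.80 to 14.2 in the other 3 tumors. Their part in the result was not tested. Sema4a, another class 4 ligand of immune cells, rose from 2.38 ± 0.384 to 21.4 ± 7.15 CPM in CT-26 and from 1.53 ± 0.306 to 22.0 ± 5.26 in Colon 26 (log2 fold changes 3.18 and 3.85).

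Plxnc1, a receptor of Sema7a, rose from 0.576 ± 0.0600 to 5.71 ± 0.693 CPM in CT-26 and from 0.888 ± 0.0505 to 7.40 ± 0.388 in Colon 26 (log2 fold changes 3.30 and 3.06). Sema7a rose in both as well, by 6.35 ± 0.38 on the log2 scale in CT-26 and by 1.40 ± 0.06 in Colon 26, to the tumor levels given above. Nrp1 rose from 12 ± 1.03 to 43.3 ± 12.8 CPM in CT-26 and from 14.2 ± 0.892 to 38.2 ± 3.11 in Colon 26 (log2 fold changes 1.86 and 1.43). The endothelial markers, all 6 of them at or below 0.163 mean CPM in culture, summed to 54.7 to 196 CPM in these CT-26 tumors and to 107 to 148 in the Colon 26 tumors. Their part in the rise of Nrp1 was not tested.

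Class 6 ligands rose in both models with one exception. Sema6a, which binds plexins A2 and A4, was at 0.140, 0.0742 and 0 CPM in the CT-26 cultures and at 0 in all 3 Colon 26 cultures. It went to 0.633, 1.5, 1.48 and 2.02 CPM in CT-26 tumors, at least 11.2-fold higher (adjusted p = 0.00067), and to 1.87, 1.65, 0.936 and 1.03 in Colon 26 tumors, at least 18.2-fold higher (adjusted p = 4.1e-05). Every tumor lay above every culture. Sema6b rose to 49.2, 41.4, 45.9 and 46.7 CPM in CT-26 (log2 fold change 1.57) and to 77.9, 72.6, 79.8 and 75.8 in Colon 26 (1.02, and 0.999 without Colon 26 culture 1). Sema6d rose to 18.7 ± 6.79 and 11.0 ± 0.994 CPM (SD, n = 4), log2 fold changes of 1.75 and 5.26. Sema3g, a class 3 ligand of vessels, completed the 9, with log2 fold changes of 1.57 ± 0.65 and 1.96 ± 0.32 (SE). In CT-26 its groups overlapped and the call was lost without any 1 of the 3 cultures or without tumor 3 or 4 (adjusted p from 0.118 to 0.149, edgeR).

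Sema6c and Plxna4 moved in opposite directions in the models. Sema6c fell by 1.66 on the log2 scale in CT-26 (adjusted p = 0.0071) and rose by 1.15 in Colon 26 (adjusted p = 0.00074). Plxna4 rose in CT-26, at least 4.54-fold from cultures with 3 or fewer counts (adjusted p = 0.00022), and fell by 1.19 in Colon 26 (adjusted p = 0.00074). Called in CT-26 only were Sema3f, at least 86.4-fold higher (adjusted p = 1.5e-05), Plxnb1 (1.82 ± 0.29, adjusted p = 0.00066), Sema3e (-1.11 ± 0.29) and Plxnb3 (-1.02 ± 0.31). The values of the last pair were short of the fold threshold without tumor 1 (-0.99 and -0.84), and that of Plxnb3 also without tumor 3 or culture 1 or 3 (-0.97, -0.96 and -0.99).

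Called in Colon 26 only were Sema3a and Sema5a, which fell, and Sema3c and Sema5b, which rose. Sema3a fell by 1.2 ± 0.07 on the log2 scale (adjusted p = 5.2e-07) from the culture to the tumor levels given above. Sema5a fell from 253 ± 6.47 to 118 ± 21 CPM (log2 fold change -1.10). Sema3c rose from 0 counts in all 3 cultures, at least 20.5-fold (adjusted p = 0.0011), and Sema5b from 0 to 0.354 ± 0.0804 CPM, at least 4.69-fold (adjusted p = 0.00016).

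**Figure D4:**
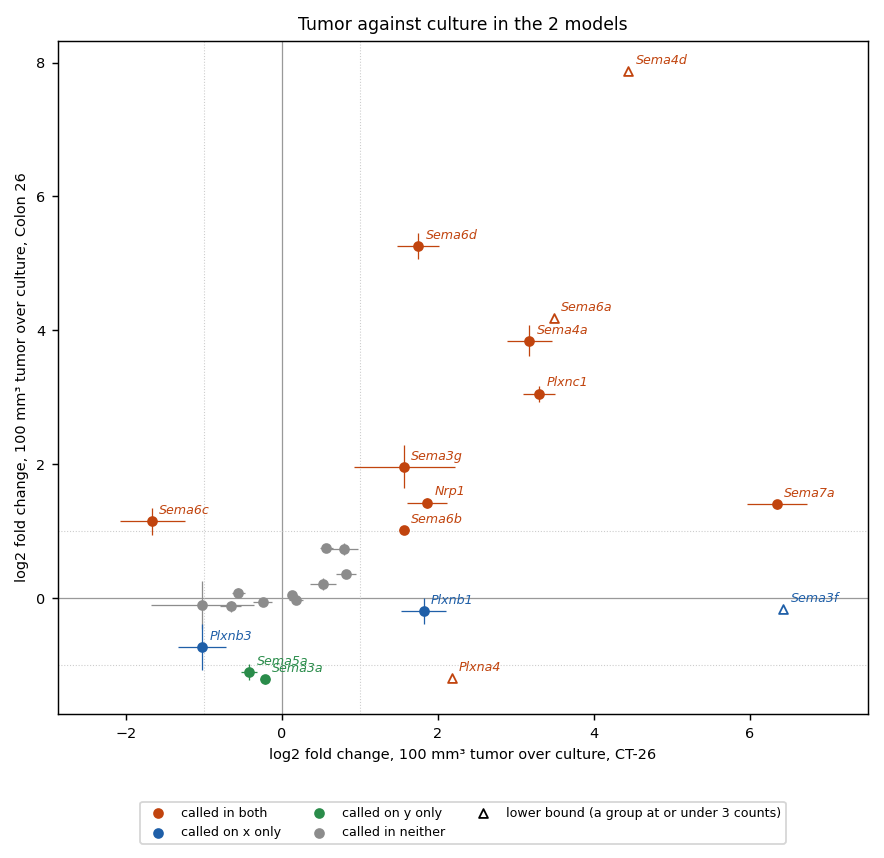
Log2 fold change, 100 mm3 tumor over culture, in CT-26 (x axis) and Colon 26 (y axis) for the genes tested in both, with standard errors as bars and colors for where a gene was called. Open triangles are lower bounds against 3 counts, and the 9 genes that rose in both models sit above 0 on both axes, while Sema6c and Plxna4 sit above 0 on one axis and below 0 on the other.

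Whether the model difference itself changed from culture to 100 mm3 tumors was tested as an interaction over those 14 libraries. Of the 31 genes 9 were called, against 17.6% of all genes, 4 upward (8.29%) and 5 downward (9.31%), and 15 passed without a minimum fold change, against 51.0%. The difference, Colon 26 over CT-26, moved up in tumors for Sema6d (3.45) and Sema6c (2.76), and down for Sema7a (-5.00), Plxnb1 (-2.06) and Sema3a (-1.04). It was also called upward for Sema4d and downward for Sema3f and Plxna4, of which a culture group had 3 or fewer counts per library, so the size of their change is not given. For Sema6a, called upward, both culture groups were that low and the 100 mm3 tumors differed by -0.05, so the call gives no difference between the cultures to compare with. It was lost without CT-26 culture 1 (adjusted p = 0.156, edgeR). The interaction of Sema3a was -0.96 without Colon 26 tumor 1 and -0.98 with RLE normalization, short of the fold threshold. Sema3e, at 1.64 and not called (adjusted p = 0.13), was called without CT-26 tumor 3 (adjusted p = 0.095) or Colon 26 tumor 3 (adjusted p = 0.021).

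Tumor size was the factor with the fewest calls. Between 800 and 100 mm3, edgeR called 0 of 27 genes tested in CT-26 (0.0% of all genes) and 0 of 28 in Colon 26 (1.33%), where 2 and 9 of them had an unadjusted p under 0.05, beside 1610 of 15298 and 3187 of 15404 genes in all. DESeq2 called 0 in CT-26 and 1 in Colon 26, Plxna4 (log2 fold change 1.2, adjusted p = 0.019). In edgeR Plxna4 was at 1.2 ± 0.38 (SE, adjusted p = 0.12), and at 1.42 (adjusted p = 0.083) without Colon 26 tumor 3 of 800 mm3. In Colon 26, 4 genes had an adjusted p of at most 0.1, beside 6.67% of all genes at any fold. They all missed the fold threshold and were Sema7a (0.50), Nrp2 (0.37), Sema4b (0.31) and Plxnc1 (-0.41). The 800 mm3 Sema7a values of 140.4, 119, 129 and 115 CPM were all above the 100 mm3 values. The model difference changed between these sizes for 0 of 31 genes in edgeR (0.0308% of all genes, and 0.0801% without a minimum fold change), with 3 at an unadjusted p under 0.05, beside 2031 of 16238 genes in all, and for 0 by DESeq2.

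Genes that work with the family were read from a list of 55 co-receptors, effectors, shared ligands and processing enzymes. In culture 12 of 43 tested were called between the models, 7 higher and 5 lower in Colon 26, and in tumors 4 of 51, 4 of 50 and 4 of 50, beside 22.9%, 13.2%, 14.3% and 14.1% of all genes. Erbb2, a kinase that pairs with plexin B1, was the one called in the same direction at every stage, at 64.1 against 29.3 CPM in culture and at 86.0 against 38.0, 103 against 33.6 and 95.8 against 34.7 in tumors (log2 fold changes 1.18, 1.17, 1.61 and 1.46). In tumors Rnd1, a small GTPase that binds plexins, was called lower in Colon 26 at 100 and 400 mm3 (-1.39 and -1.28) and the adhesion molecule L1cam, which joins Nrp1, higher (1.23 and 1.32). Vegfb was called higher at 100 and 800 mm3 (1.05 and 1.003), Vegfc at 400 mm3 (1.03) and Mst1r at 800 mm3 (1.33), and Arhgap35 lower at 800 mm3 (-1.06).

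From culture to 100 mm3 tumors 23 of 50 genes of that list were called in CT-26, 18 higher and 5 lower, and 23 of 51 in Colon 26, 19 higher and 4 lower, beside 32.2% and 26.9% of all genes. The genes that fell were Nrcam, Rnd1, Rhod, Gsk3b and Vegfa in CT-26 and Dpysl5, Rnd1, Rhod and Vegfa in Colon 26. Among those that rose are partners of the ligands above, chosen for mention after their values were seen. Cd72, the leukocyte receptor of Sema4d, went from 0.597 to 54.8 CPM in CT-26 and from 0.189 to 51.4 in Colon 26. Itga1, the integrin chain that pairs with beta 1 to bind Sema7a, went from 0.0852 to 13.8 CPM in CT-26, at least 109.7-fold higher, and from 1.81 to 14.6 in Colon 26. Trem2, which joins plexin A1 as a receptor of Sema6d on myeloid cells, went from 0.438 to 33.4 CPM and from 0.608 to 53.6. The 5 macrophage markers, of which Cd68 was at 61.7 CPM in CT-26 culture and the other 4 at or below 0.492, summed to 849 to 1173 CPM in these CT-26 tumors and to 1058 to 1226 in the Colon 26 tumors, and their part in these rises was not tested.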

How the data were processed

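Poly(A) RNA of 30 libraries was sequenced. Per the labels and the study's methods, the authors counted reads per gene in Array Studio with an Ensembl annotation. The deposited estimated counts (22.6% of the non-zero values were not whole) were rounded to whole numbers here, and the deposited FPKM were used to compare levels between genes. The aligner, the genome build and the handling of strand were not given in the sources used here. Of 53431 gene identifiers, 52207 (97.7%) were named.

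Groups were taken from the labels, which carry no replicate numbers. Each comparison was fitted across all genes on its own libraries with edgeR 4.0.16 (quasi-likelihood test, TMM normalization, filterByExpr) in R 4.3.3, and p-values were adjusted by Benjamini-Hochberg over all genes tested. A call needed an adjusted p no higher than 0.1 and a change of 1 or more on the log2 scale, the thresholds the study used with DESeq2 1.24.0. Standard errors are the log2 fold change divided by the root of the F statistic. DESeq2 1.42.0 and limma 3.58.1 on log2(FPKM + 1) or log2(FPKM + 0.1) were alternatives, along with other normalizations, filters, thresholds and left-out libraries. The code was tested on simulated data. Depth covers counting error only. Over 42 replicate pairs the variance was 2.91 to 4.53 times that of counting in cultures and 9.86 to 73.9 times in tumors.

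Members and lists were chosen with earlier results of these data known. Values in every library are given for genes called in 1 direction in culture and at least 2 tumor sizes, for the 3 largest called changes of the tumor, size and interaction comparisons, and for the gene of highest FPKM in class 3, 4, 6, plexins and neuropilins. Pathway genes are named when called in culture and all 3 tumor sizes in 1 direction, or as a count of 5 or fewer.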

Additional observations from a re-analysis of the deposited data

Results flagged for a closer look

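In 11 of 150 groups of 4 tumors, 1 tumor stood apart from the other 3 by Dixon's test on log2(CPM + 0.01) at the 95% level, which chance gives in about 1 group in 20. Values are CPM. Above the others lay Plxnb1 at 17.2 in CT-26 tumor 3 of 100 mm3, Sema4d at 32.7 in CT-26 tumor 2 of 100 mm3 and Sema6c at 1.13 in CT-26 tumor 4 of 100 mm3. Sema6a at 1.82 in CT-26 tumor 1 of 800 mm3 and Sema3d at 0.572 in Colon 26 tumor 1 of 400 mm3 were also above. Below the others lay Sema3a at 282 in CT-26 tumor 4 of 100 mm3, Sema5a at 182 in CT-26 tumor 1 of 100 mm3 and Sema6c at 0.269 in CT-26 tumor 3 of 400 mm3. In Colon 26, Nrp2 at 224 and Sema3f at 17.9 in tumor 1 of 400 mm3, and Sema3c at 0.160 in tumor 1 of 800 mm3, were also below. The Colon 26 tumor 1 of 400 mm3 held the highest Acta1 of all libraries, at 884 CPM.

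The difference between models changed from culture to 100 mm3 tumors, by the interaction test in edgeR, for 9 genes. On the log2 scale the changes were -5.00 ± 0.40 (SE) for Sema7a, -2.06 ± 0.36 for Plxnb1, -1.04 ± 0.10 for Sema3a, 3.45 ± 0.39 for Sema6d and 2.76 ± 0.48 for Sema6c. For genes with 3 or fewer counts per library in a culture group, the fitted value depends on the prior count of the fit and is neither a measured size nor a bound. These were -7.72 for Sema3f, -4.53 for Plxna4 and 4.39 for Sema4d, each with 1 such culture group, and 4.09 for Sema6a, with both.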

How the results depend on the processing

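Counts of called genes follow the order culture, 100, 400 and 800 mm3 between models. With no minimum fold change they were 24, 19, 16 and 20, with 25 for CT-26 tumor over culture, 4 for size in Colon 26 and 15 for the interaction of model and growth as tumor. With at least 10 counts in every library, 20, 23, 22 and 24 genes were tested, in culture without Sema7a, Sema4g, Plxna4 and Sema3e. The counts of called genes were then 3, 5, 4 and 6, with 9 for CT-26 tumor over culture and 1 for the interaction. With limma on log2(FPKM + 1), which shrinks low genes, they were 3, 3, 2 and 2, with 7 for tumor over culture in each model and 3 for the interaction, and log2(FPKM + 0.1) gave 6 at 800 mm3. DESeq2 and the fit without a filter each called 1 gene for size in Colon 26. Leaving out 1 library at a time gave 10, 8 to 10, 7 to 9 and 8 to 10 between models, 13 to 15 and 14 to 15 for tumor over culture in CT-26 and Colon 26, 0 and 0 to 1 for size, 8 to 10 for the interaction with tumor growth and 0 for that with size. For the filter of 10 counts, limma and left-out libraries the share of all genes called is not given here. Those counts therefore cannot be measured against it, nor against the shares of the main fit. Of 1362 named values with a library left out, 30 fell short of a threshold and 3 came past it, and of 1321 under other settings 80 and 3 did, 48 of the 80 with log2(FPKM + 1). None of these reversed a called value, and of 75 called values 0 changed sign with RLE normalization or library size alone. No paired analysis was possible because the labels carry no replicate numbers. Sema3c, Sema3d, Sema5b and Sema6a had too few counts to pass the filter between the cultures and were untested there.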
